A study of Arabidopsis with 2 samples.

Results

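The genes described here were chosen to represent the proteins of the 40S and 60S subunits of the cytosolic ribosome. Their transcripts were compared between wild-type and cuc1 cuc2 embryos of Arabidopsis thaliana. The genes were taken as every gene probe of the array whose printed description holds "40S ribosomal" or "60S ribosomal". This gave 128 of 21500 gene probes, 56 for the small and 72 for the large subunit. Each probe stands for a different gene. The descriptions, or RefSeq synonyms where the description had no number, assigned 119 of the genes to 61 numbered proteins, 27 of the small and 34 of the large subunit with the mitochondrial S19 counted apart, and left 9 genes without a number. The wording also kept 5 genes that RefSeq lists as transcribed pseudogenes and 1 gene described as a mitochondrial precursor. Whether others of the 128, such as AT3G22300 (S10) and AT1G49400 (S17), belong to organelle ribosomes was not checked. By contrast, 112 further probes described as ribosomal protein without either phrase were outside the rule and are given as a separate list. Some of these descriptions hold a protein number, such as S13 or L28.

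RNA came from embryos excised from seeds, either cuc1-1 cuc2-1 double mutants or the Landsberg erecta wild type (Ler), both at the torpedo stage, with about 100 embryos pooled per genotype. The parent plants grew on soil at 23 °C in continuous light, and those of the mutant embryos were cuc1-1 cuc2-1/+, homozygous for cuc1-1 and heterozygous for cuc2-1. CUC1 and CUC2 are NAC transcription factors of the boundary between the cotyledons, and the embryos that lack both form fused cotyledons and no shoot meristem. In hybridization 1 the mutant cRNA carried Cy5 and the wild-type cRNA Cy3, and in hybridization 2 the dyes were exchanged on the same pair of extracts. There was thus 1 biological replicate per genotype, no test across replicates is possible, and the spread between the hybridizations is technical. Ratios are log2 of cuc1 cuc2 over Ler and are thus negative where the wild type was brighter, and each error is that of the scanner software's error model, combined over both hybridizations for a mean. The dyes were normalized within each array by a curve over brightness, after which the median ratio of all gene probes was 0 in each array. Every ratio is thus relative to probes of like brightness. Since whole embryos were pooled, fewer cells of a type and less RNA per cell cannot be told apart.

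Ribosomal proteins surround and stabilize the ribosomal RNAs: the small subunit reads the mRNA, and the large subunit joins the amino acids and guides the new chain through its exit tunnel. In Arabidopsis, most of these proteins are encoded by several paralogous genes, whose products are nearly the same. The transcripts are abundant in dividing tissue, and mutants of single paralogs have pointed leaves, altered leaf polarity or embryo arrest.

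Of the genes that were mutated, CUC2 (AT5G53950) had signals of 430 in cuc1 cuc2 and 663 in Ler in hybridization 1, and of 297 and 594 in hybridization 2, and its mean log2 ratio was -0.81 (error 0.22). CUC1 (AT3G15170) had a mean log2 ratio of -0.045 (error 0.12). All 12 probes of a list of embryo marker genes, among them LEC1, FUS3 and ABI3, were well above background in both channels of both arrays. Of 11 endosperm and seed coat markers 6 were, and the probes of FIS2, BAN, PHE1, FWA and MEA were not. The summed signal of the endosperm and seed coat list was 4906 and 5195 in cuc1 cuc2 and 5444 and 5056 in Ler, so the genotypes overlapped. That of the embryo list was 44668 and 47269 in cuc1 cuc2 and 43283 and 44760 in Ler. Most of this sum came from LEC1, with 27862 and 30133 in cuc1 cuc2 and 27760 and 28980 in Ler. Within the embryo list, the storage genes SESA3 and OLEO1 were higher in the mutant, with mean log2 ratios of 0.71 (error 0.17) and 0.60 (error 0.13). Both had p-values of the scanner software's error model under 0.01 on both arrays. CRA1, another storage gene, was at -0.26 (error 0.16). The part of these markers in the ratios of ribosomal protein genes was not tested.

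As a group, the ribosomal protein genes had slightly lower signals in cuc1 cuc2 than in Ler. The median of their mean log2 ratios was -0.13, which is a signal 1.10-fold lower in the mutant, against 0 for the other 21372 gene probes. Hybridization 1 gave a median of -0.13 and hybridization 2 one of -0.11. The ratio was negative in both hybridizations for 89 of the 128 genes, or 69.5%, where the same was true of 22.9% of all gene probes. It was positive in both for 10 genes, or 7.81%, against 23.1% of all gene probes, and the signs differed for the other 29.

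None of the 128 genes reached the threshold by which the study called its genes, deposited p-values under 0.01 with 1 sign on both arrays. That rule called 0.242% of all gene probes lower and 0.502% higher, and 0 of the 128 either way. With a limit of 0.05 in both, 3 of the 128 genes were lower and 0 were higher, where 0.474% and 1.1% of all gene probes were. The 3 genes were RPS5B, RPL10B and AT3G09630. On a single array, a p-value under 0.01 was given to 3 lower genes in hybridization 1 and to 1 in hybridization 2, and to 0 higher genes, where the shares of all gene probes were 0.642% and 0.442% lower and 0.921% and 1.11% higher. For a typical gene of the group the error of the mean ratio was 0.12, nearly as large as the group's median. The mean ratio lay more than 2 such errors below 0 for 26 genes (20.3% against 2.24% of all gene probes) and more than 2 errors above 0 for 1 gene (against 3.81%). It lay below -0.2 for 35 genes, or 27.3%, against 8.69% of all gene probes. The hybridizations of 1 gene differed by a median of 0.10, and the middle part of the 128 mean ratios, from the 25th to the 75th percentile, ran from -0.22 to -0.046.

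**Figure D1:**
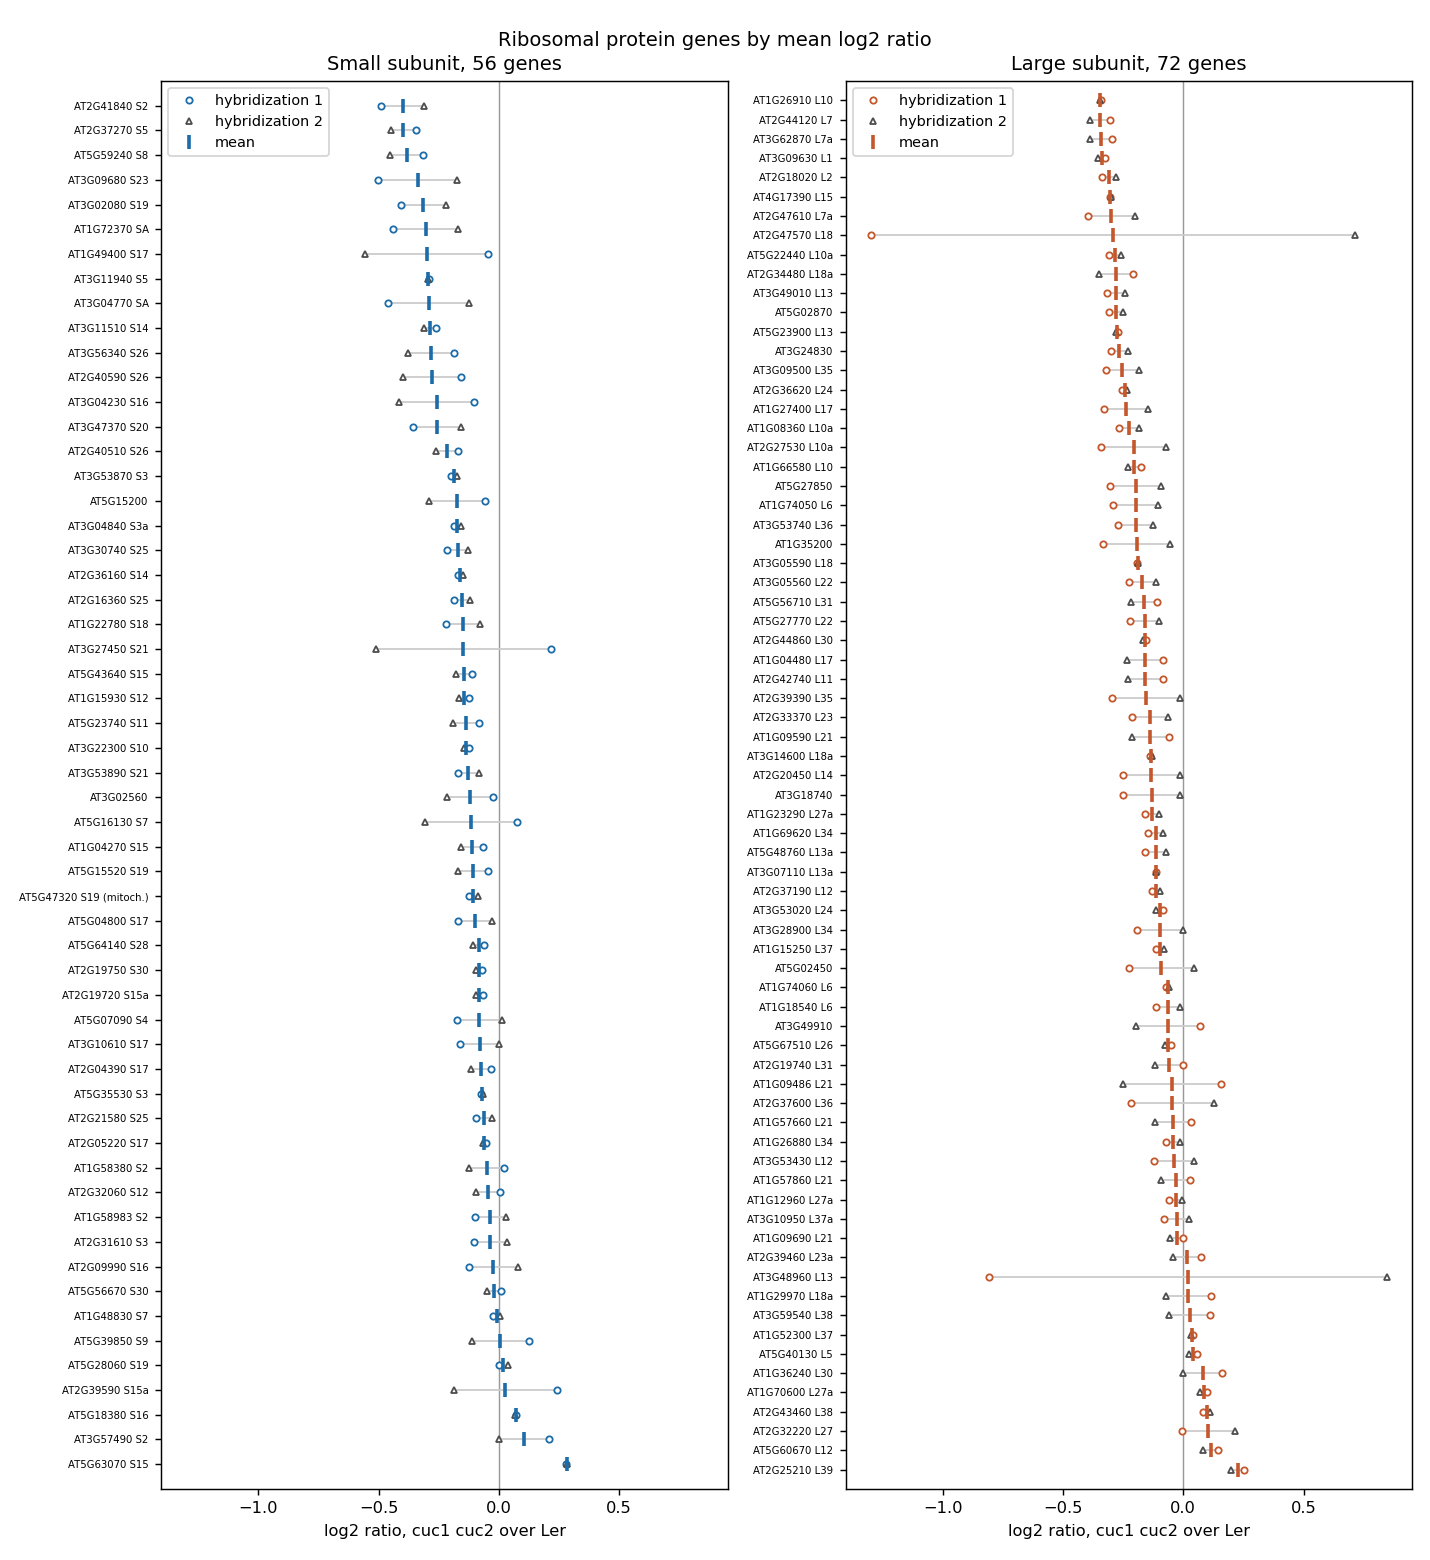
Log2 ratio of cuc1 cuc2 over Ler (horizontal axes) of each of the 56 small-subunit genes (left) and 72 large-subunit genes (right), with hybridization 1 as circles, hybridization 2 as triangles and their mean as a bar. Means ran from -0.40 to 0.28 and lay below 0 for 110 of the 128 genes, and the 2 widest spans belong to the probes that were not well above background.

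No difference between the subunits held in both hybridizations. The median of the mean log2 ratios was -0.12 for the small subunit and -0.13 for the large subunit. The large subunit lay below the small one by 0.050 in hybridization 1, with medians of -0.16 and -0.11, and above it by 0.039 in hybridization 2, with medians of -0.098 and -0.14, so the sign of the difference changed with the dye swap. Both ratios were negative for 39 of 56 small-subunit genes (69.6%) and for 50 of 72 large-subunit genes (69.4%). Both were positive for 4 and 6 genes.

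**Figure D2:**
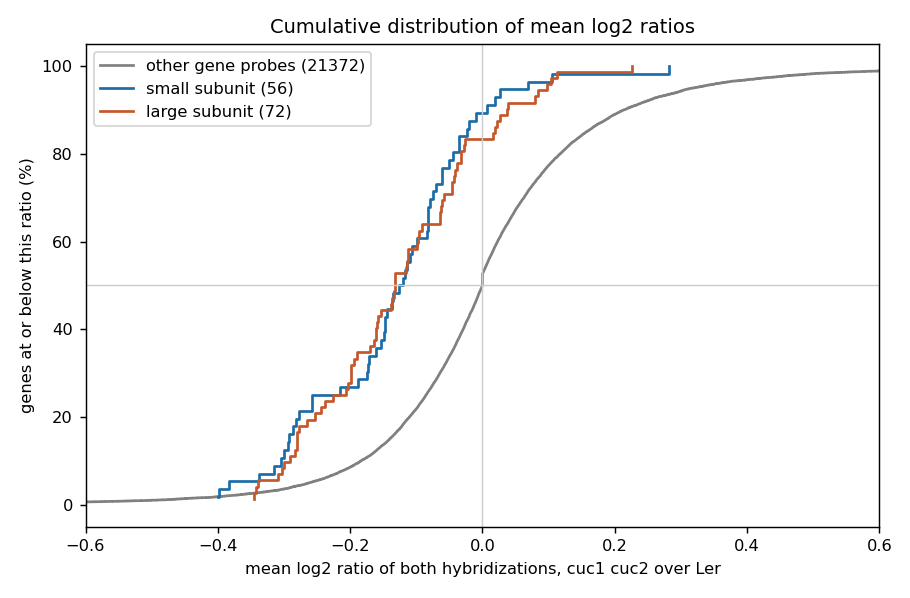
Share of genes (vertical axis, %) at or below a given mean log2 ratio (horizontal axis, cuc1 cuc2 to Ler) for the small subunit, the large subunit and all other gene probes. The curves of the subunits run together, with medians of -0.12 and -0.13, to the left of the curve of the other probes, whose median is 0.

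Among the small-subunit genes, the lowest deposited ratios were seen for genes of S2, S5, S8 and S23, the last 2 from dim probes. AT2G41840 (RPS2C), for a protein at the entry of the mRNA channel, had signals of 8008 in cuc1 cuc2 and 11251 in Ler in hybridization 1, and of 8975 and 11127 in hybridization 2. Its mean log2 ratio of -0.40 (error 0.12) was the lowest of the 128. RPS5B (AT2G37270), for a protein of the head, had signals of 5515 and 7012 in hybridization 1, and of 5677 and 7750 in hybridization 2, with a mean log2 ratio of -0.40 (error 0.12) and deposited p-values of 0.038 and 0.0072. In these genes the wild-type signal was the higher one in both hybridizations. The other S5 gene, RPS5A (AT3G11940), which is needed for normal cell division in the embryo, was lower by less, with log2 ratios of -0.29 and -0.30. AT5G59240, for S8, and AT3G09680, for S23 of the decoding centre, followed with mean log2 ratios of -0.38 (error 0.26) and -0.34 (error 0.26). The log2 ratios were -0.31 and -0.45 for AT5G59240, and -0.50 and -0.17 for AT3G09680. Their probes were dim, with signals between 328 and 464, their means lay within 2 errors of 0, and both were nearer to 0 under the 4 other background corrections and normalizations, between -0.26 and -0.14 for AT5G59240 and between -0.18 and -0.12 for AT3G09680. The pair of genes for SA, P40 (AT1G72370) and RPSAb (AT3G04770), had mean log2 ratios of -0.30 and -0.29. For both of these the ratio of hybridization 1, -0.44 and -0.46, was well below that of hybridization 2, -0.17 and -0.12.

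In the large subunit, the lowest ratios were seen for RPL10B (AT1G26910), AT2G44120 (L7), AT3G62870 (L7a) and AT3G09630, which the array describes as L1. L10 is a late-joining protein near the site of peptide bond formation. RPL10B had signals of 11661 in cuc1 cuc2 and 14797 in Ler in hybridization 1, and of 13733 and 17474 in hybridization 2, and log2 ratios of -0.34 and -0.35 (deposited p-values 0.038 and 0.036). AT3G09630 had signals of 15901 and 19903 in hybridization 1 and of 17501 and 22394 in hybridization 2, and log2 ratios of -0.32 and -0.36 (deposited p-values 0.0499 and 0.031, both under the limit of 0.05). Its spot carried a quality mark of the scanner software. AT2G44120 had log2 ratios of -0.30 and -0.39, and AT3G62870 of -0.30 and -0.39. Each of these 4 genes thus had a lower mutant signal under either dye, by about 1.27-fold, with hybridizations that differed by at most 0.092. EMB2296 (AT2G18020), for L2, and AT4G17390, for L15, were close behind at -0.31 and -0.30.

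A few genes lay on the other side of 0. The highest was AT5G63070, described as S15-like, with signals of 3004 in cuc1 cuc2 and 2475 in Ler in hybridization 1, and of 2304 and 1892 in hybridization 2. Its log2 ratios were 0.28 and 0.28, and its mean was the 1 that lay more than 2 errors above 0. AT2G25210, for L39, a small protein that lines the exit tunnel, had signals of 96018 and 80626 in hybridization 1 and of 102541 and 89292 in hybridization 2, with log2 ratios of 0.25 and 0.20. These were the only 2 of the 128 genes with a mean log2 ratio above 0.2. The other genes with the largest positive ratios of 1 sign were AT5G60670 (L12), AT3G57490 (S2), AT2G43460 (L38), AT1G70600 (L27a), AT5G18380 (S16) and AT5G40130, an L5-like pseudogene, with means between 0.039 and 0.11. Each of these 6 means was smaller than its error of 0.12, so they are not distinguished from 0.

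**Figure D3:**
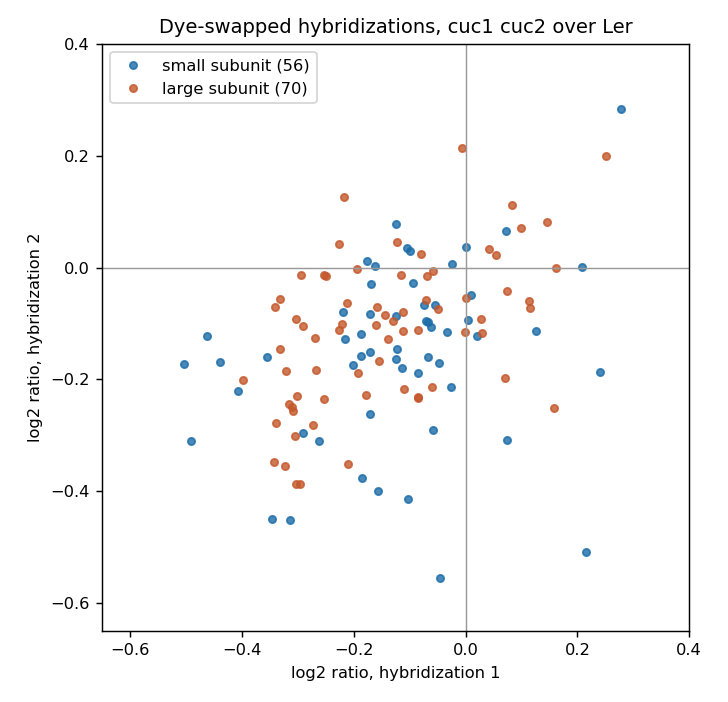
Log2 ratio in hybridization 2 (vertical axis) against that in hybridization 1 (horizontal axis) of cuc1 cuc2 over Ler, for the 126 genes well above background in all channels. Most points lie at the lower left, where both ratios are negative, and AT5G63070 and AT2G25210 stand at the upper right.

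Across the 126 ribosomal protein genes that were well above background in all channels, the ratios of the hybridizations correlated with Pearson's r of 0.38 and Spearman's rho of 0.40. This r was 0.27 over 56 small-subunit and 0.52 over 70 large-subunit genes. Over all 18102 probes that met the same criterion it was -0.020. These are descriptions across genes, which share their extracts and arrays and are not independent replicates.

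The probes of the ribosomal protein genes were among the brightest on the array. The mean signal of 98 of the 128, or 76.6%, lay in the highest 10% of all gene probes, above 6281, so the ratios were set beside those of other probes as bright. In that range the 2052 other probes had a median log2 ratio of 0.0099, with 34.1% negative in both hybridizations. Since the dyes were normalized by a curve over brightness, a median near 0 at each brightness is in part set by that step. It is not separate evidence that bright probes have no offset. The 98 ribosomal protein genes there had a median of -0.12, and 72 of them, or 73.5%, were negative in both. In its brightest part, above 25323, the 366 other probes had a median of 0.021 and the 64 ribosomal protein genes one of -0.098. Within the group, brighter genes tended to have higher ratios, with a Spearman's rho of 0.30 between mean ratio and mean log2 signal over the 128 genes.

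**Figure D4:**
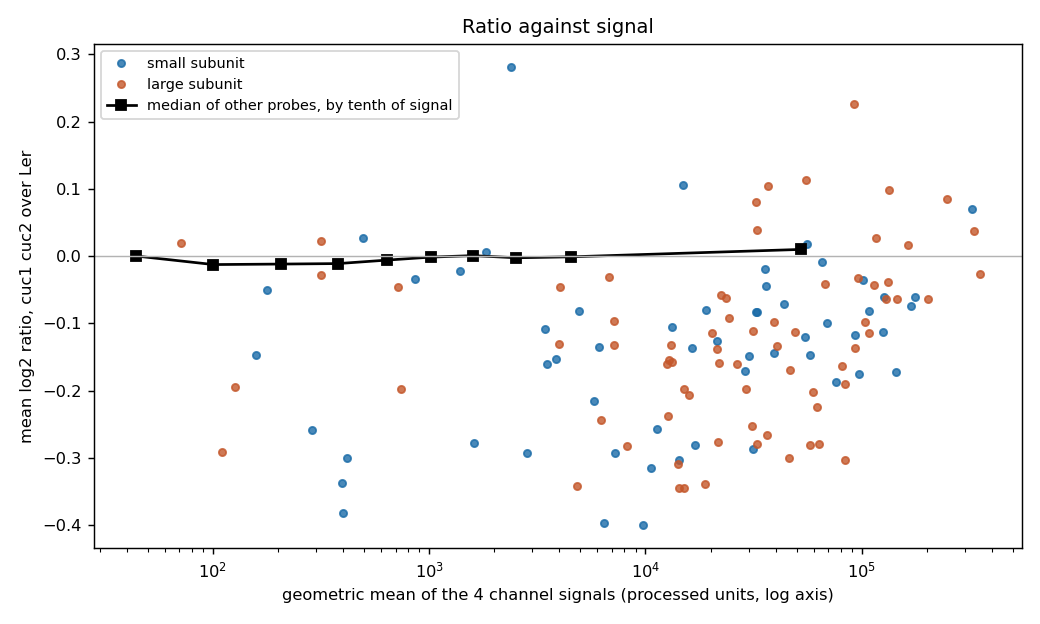
Mean log2 ratio, cuc1 cuc2 to Ler (vertical axis) against the mean signal over both genotypes and both hybridizations (horizontal log axis, processed signal units), for each ribosomal protein gene as a point and for the other probes as the median in each of 10 equal-sized groups by signal. The medians of the other probes stay between -0.013 and 0.0099, in part because the dye normalization follows brightness. Most ribosomal protein genes lie below these medians.

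This pattern depended in part on the way the dyes were balanced. When the ratios were recomputed with a median for each array in place of a correction that follows brightness, the ribosomal protein genes had a median log2 ratio of 0.11 in hybridization 1 and of -0.39 in hybridization 2. Only 28 of 128 were then negative in both, against 11.1% of all gene probes. The median of the mean over both dye orientations was -0.12, near that of the deposited ratios.

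Paralogs of 1 protein could be compared for 37 proteins, with 95 genes. They were grouped by the protein numbers of the array's descriptions, which can be old and were not checked by sequence. The mean over the paralogs was below 0 for 35 of these proteins and above 0 for S15 and L38. In 16 of the 37 every paralog was lower in cuc1 cuc2 in both hybridizations, among them S5, SA, S14, S26, L7a, L10, L10a, L17 and L35. Of the 128 genes taken singly 69.5% were lower in both, so many such proteins would be seen without any link between paralogs. The count is thus not a sign that paralogs go together. Means over the paralogs were -0.35 for S5, -0.32 for L7a, -0.30 for SA, -0.27 for L10, -0.26 for S26 and -0.24 for L10a, whose genes include PGY1. At the other end, L12, L27a, S15a and L37 had means over their paralogs between -0.030 and -0.012, and the 5 L21 genes one of -0.057. The median absolute difference in mean log2 ratio was 0.10 over 83 pairs of paralogs and 0.12 over 4103 pairs of genes for different proteins, among the 92 of these genes well above background. Of the variance of their mean log2 ratios, 53.6% lay between proteins, where the number of proteins alone would give 38.5%, and the share was 58.1% in hybridization 1 and 43.5% in hybridization 2.

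**Figure D5:**
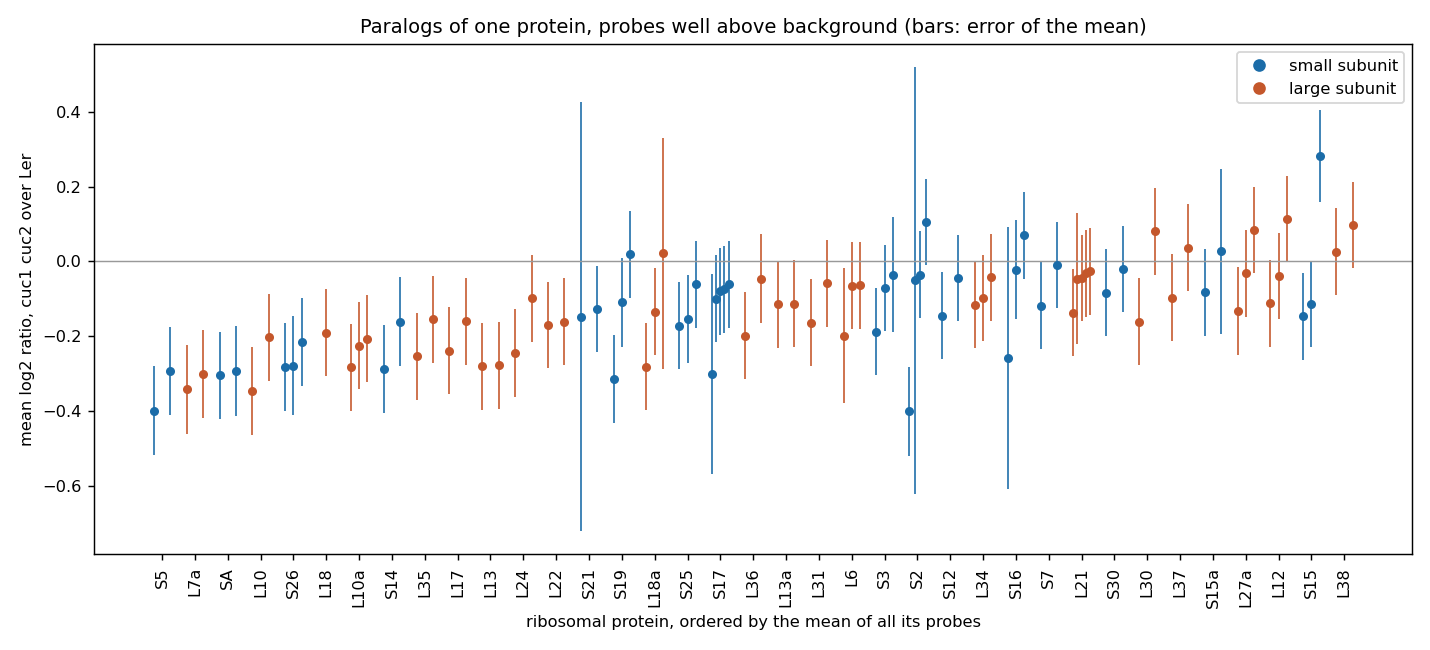
Mean log2 ratio, cuc1 cuc2 to Ler (vertical axis) of each paralog well above background, for the 37 proteins with several probes (horizontal axis, ordered by the mean over all their probes). Bars are the error of the mean from the scanner's error model; S5 lies lowest and S15 and L38 highest, and the genes described as S2, S15 and S19 spread widely.

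Most paralogs could not be distinguished from each other. Of 86 pairs, 77 differed by less than 1 combined error of the pair. Past 2 combined errors, with the same sign of difference in both hybridizations, there were 5 pairs, which belonged to S2, S15 and S19, all of the small subunit. They made up 5.81% of the 86 pairs. The share that error alone would put past this limit was not worked out, so the pairs may reflect error only. These pairs are not separate, since RPS2C recurs in those of S2 and AT5G63070 in those of S15. Within S2, RPS2C at -0.40 and AT3G57490 (RPS2D) at 0.11 differed by 0.51 (combined error 0.17). RPS2D had signals of 15302 in cuc1 cuc2 and 13243 in Ler in hybridization 1, and of 15607 and 15589 in hybridization 2, so its own excess in the mutant was seen in 1 hybridization only. AT1G58983, at -0.036, also lay above RPS2C, by 0.36 (combined error 0.16). The probe of the fourth S2 gene, XW6 (AT1G58380), was dim and had an error of 0.57.

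S15 is a protein of the head of the small subunit, near the decoding site. Its genes AT5G43640 and RPS15 (AT1G04270) had mean log2 ratios of -0.15 and -0.11, and AT5G63070 lay above them by 0.43 (combined error 0.17) and 0.39 (combined error 0.17). The signals of RPS15 were 119821 in cuc1 cuc2 and 125566 in Ler in hybridization 1, and 122152 and 136428 in hybridization 2. The signs of RPS15 and AT5G63070 were thus opposite under either dye, although the mean of RPS15 was within 1 error of 0. For S19, which is needed to mature the RNA of the small subunit in yeast and human cells, AT3G02080 was at -0.31, AT5G15520 at -0.11 and AT5G28060 at 0.019. AT3G02080 had signals of 8141 in cuc1 cuc2 and 10797 in Ler in hybridization 1, and of 11095 and 12938 in hybridization 2, and AT5G28060 had 52779 and 52748, and 59988 and 58495. The first and the last of these genes differed by 0.33 (combined error 0.16), the smallest of the 5 differences. AT5G28060 was grouped with S19 only by its description as S19-like, which no RefSeq name bears out, so these may not be paralogs, and without it 4 pairs of S2 and S15 genes were past 2 combined errors.

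Wide but less certain differences were seen in S16, L18a and L30. The dim S16 gene AT3G04230 was at -0.26 (error 0.35), AT2G09990 at -0.023 and AT5G18380 at 0.069. For L18a, AT2G34480 was at -0.28 (error 0.12), AT3G14600 at -0.13 and the dim gene RPL18AA (AT1G29970) at 0.022 (error 0.31). The genes that the array describes as L30, AT2G44860 and AT1G36240, were at -0.16 and 0.080, a difference of 0.24 (combined error 0.16). No pair of these 3 proteins differed by more than 2 combined errors. The sequences of the probes were not used here, and whether the probe of 1 paralog also binds transcripts of another was not tested.

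Ribosomal protein genes with known roles in development were compared as a list of 20, 8 of which belong to the 128. RPL24A was listed as the paralog of STV1 and not for a developmental role of its own. Of the 20, 18 had negative ratios in both hybridizations, or 90%, against 22.9% of all gene probes, and the median of the means was -0.18. The share was 69.5% among the 128 genes, and 34.1% among other probes in the brightest 10% of the array. Whether the list differs from other ribosomal protein genes was not tested. Among the 8, RPL24A (AT2G36620) was at -0.24 (error 0.12), and its paralog STV1 (AT3G53020), required for the translation of auxin response factors and for gynoecium patterning, was at -0.098 (error 0.12). PGY1 (AT2G27530), an L10a gene that acts in leaf polarity, was at -0.21, with log2 ratios of -0.34 and -0.071. PFL (AT1G22780), an S18 gene named for its pointed first leaves, was at -0.15, from -0.22 and -0.079. AT3G09630 and AT5G02870, listed as the L4 genes RPL4A and RPL4D, were at -0.34 and -0.28 (error 0.12 for each). Their descriptions do not share a number, so they were not among the paralog pairs. RPL23AA (AT2G39460) was near 0, at 0.016. The spots of AT3G09630, AT5G02870 and RPL23AA carried a quality mark. Of the 12 genes outside the group of 128, 11 were negative in both (91.7%), with a median of -0.14. The lowest was RPL3B (AT1G61580) at -0.52, from -0.62 and -0.42, and the exception was ATL5 (AT3G25520) at 0.17, from 0.0075 and 0.33.

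Other parts of the translation machinery were compared by their descriptions. Of all gene probes, 22.9% were negative and 23.1% positive in both hybridizations. Among probes outside the 128 in the brightest 10% of the array, 34.1% were negative in both. Of 14 acidic proteins of the stalk, where elongation factors bind, 9 were negative and 0 positive in both hybridizations, with a median of -0.22. One of them, AT5G57290, described as P3, was past the study's threshold, with signals of 3746 in cuc1 cuc2 and 5674 in Ler in hybridization 1, and of 4725 and 9341 in hybridization 2, and a mean log2 ratio of -0.79. The 12 probes described as cytosolic elongation factors had a median of -0.19, with 10 negative and 0 positive in both, and the lowest was eEF-1Bb1 (AT1G30230) at -0.46. Among these 12, RefSeq names AT4G22780 ACR7 and AT1G07910 RNL, so they may not be elongation factors. The 112 other probes described as ribosomal protein had a median of -0.083, with 63 negative and 15 positive in both. For 51 translation initiation factors the median was -0.060, with 27 and 7, and for 26 genes of ribosome biogenesis it was -0.082, with 14 and 5. Proteins of organelle-type ribosomes, described as 30S or 50S, had a median of -0.047 over 31 genes. Of these, 13 were negative (41.9%) and 7 positive (22.6%) in both, the latter near the share of all gene probes. The 8 genes for ubiquitin fused to a ribosomal protein and for RACK1, a scaffold protein of the small subunit, had a median of -0.14, with 6 negative and 0 positive in both. The medians of all of these lists were negative, and those of the stalk proteins, the elongation factors and the ubiquitin and RACK1 genes lay below that of the 128 genes. Differences between the lists were not tested.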

How the data were processed

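Two-colour Agilent Arabidopsis 2 oligonucleotide arrays were analysed, 2 hybridizations with exchanged dyes of 1 pair of RNA extracts. The authors deposited the scanner output (Feature Extraction 7.5.1), in which the software subtracted a spatially detrended background, normalized the dyes within each array by a curve over brightness, and gave for each spot the signal intensity of each channel, the log10 ratio of red over green, its error and a p-value. The deposited value table held the same log10 ratios and was not used further. The genome build was not given in the sources used here.

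Here ratios were expressed as log2 of mutant over wild type by the dyes in the labels and averaged over both hybridizations. The error of a mean is the root of the summed squared errors divided by 2. Errors cover technical error only, and 2 arrays limit the precision. Genes were counted as called where both deposited p-values were under 0.01 and the signs matched. Names came from RefSeq (TAIR10.1), matched by locus for 21191 of the 21500 gene probes, including all 128 genes described. Probes with control type were left out. Ratios were recomputed with limma 3.58.1 (R 4.3.3) as alternatives, with normexp (offset 50), no correction or plain subtraction, and loess or median centring. Counting and summary steps were tested on simulated data.

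Genes described singly are those called, the 8 lowest and 8 highest with 1 sign in both hybridizations and well above background, the paralogs of the 6 proteins with the widest differences, a list of genes with developmental roles, CUC1 and CUC2. RPL3B, ATL5, SA, L2 and L15 genes, AT5G57290, eEF-1Bb1, AT4G22780, AT1G07910 and the marker genes given with values were named after their values were seen. Members and lists were chosen with earlier results of these data known.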

Additional observations from a re-analysis of the deposited data

How the results depend on the processing

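No paired analysis was possible because both hybridizations share 1 pair of extracts. Medians of both subunits stayed negative under every alternative. With normexp and median centring, 28 genes were lower and 1 higher in both hybridizations, and 3 paralog pairs passed 2 combined errors. Without background correction, the small-subunit median was -0.10 and 3 pairs passed. Without putative or like descriptions, the small-subunit median was -0.083, large minus small was -0.075, and 44 of 59 genes were lower and 5 higher in both. With 1 value per protein, 51 of 70 were lower and 3 higher. At a limit of 0.05, 3 genes were called lower. With only 1 hybridization kept, 23 to 26 genes were higher, 102 to 105 lower and 1 to 3 called lower, and large minus small changed sign, from -0.050 to 0.039. Chosen after the data were seen, adding other ribosomal protein descriptions gave 152 lower and 25 higher of 240. Restriction to probes well above background, to spots with no quality mark, to the brightest 10% or to genes without pseudogenes and the mitochondrial precursor changed no count by more than 1.5 times, and 4 pairs passed without AT5G28060. The 37 genes named by rule moved by less than their error or the spread between hybridizations under the 4 recomputations, and 3 with means near 0 changed sign with median centring. Depth limits the dim probes: errors of the mean reached 1.29 for the 2 genes not well above background.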
